A study of Homo sapiens with 42 samples.

Results

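The cytosolic heat shock chaperones described here are 10 genes driven by the heat shock transcription factor HSF1. They are HSPA1A, HSPA1B, HSPA6, HSPA8, HSPH1, DNAJB1, BAG3, HSP90AA1, HSPB1 and HSPE1. They were listed by name, and all 10 of 10 were found among the 60606 genes of the deposited expression table. All 10 also had a mean of at least 1 TPM (a length-normalised share of all transcripts) over the 30 whole-cell libraries, and so were among the 14426 genes tested.

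Chaperones bind unfolded proteins and help them fold, refold or be degraded. At rest HSF1 is held inactive by chaperones, and when unfolded proteins draw these away it binds heat shock elements, which are repeats of the unit GAA in alternating orientation, and raises transcription. HSP70 proteins do the binding, HSP40 proteins deliver clients to them, and HSP110 and BAG proteins make them let go. In heart muscle, where proteins are under constant mechanical load, BAG3 and the small heat shock proteins help clear damaged filament proteins, and mutations of BAG3 are a known cause of dilated cardiomyopathy.

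The cells were AC16, a human line labelled cardiomyocyte-like, and every group was given doxycycline at 1 ug/ml. The 10 groups have 3 libraries each. In 7 of them the cells carried a doxycycline-inducible hairpin against RPL3, which codes for a protein of the large ribosomal subunit, together with a construct for its muscle paralog RPL3L bearing 1 changed residue. The changes were P291L, T189M, G27D, R161W, D308N, D308V and R343W. RPL3L-WT cells carried the same hairpin with wild-type RPL3L, shRPL3 cells the hairpin alone, and shScramble cells a scrambled hairpin. The hairpin lines were kept by hygromycin selection after lentiviral transduction and the RPL3L lines were then sorted as BV421-positive pools, so each line is a transduced population. Whether the 3 libraries of a group came from separate cultures is not stated. The p-values therefore reflect spread among libraries that may be merely technical.

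RPL3 averaged 536 ± 35.2 TPM in shRPL3 and 1570.2 ± 38.8 TPM in shScramble (SD, n = 3 each). Among the RPL3L lines it was highest in R161W at 1438 ± 334 TPM, and in the 8 RPL3L lines RPL3L averaged 2463 to 5116 TPM. Of 17 cardiomyocyte markers, 16 had a mean under 1 TPM, among them TNNT2, MYH6 and MYH7. The other was GATA4, with a median of 2.25 TPM and at most 4.94 TPM. The 17 summed to 2.81 to 7.35 TPM per library. All 10 fibroblast markers were expressed, with sums of 5032 to 7411 TPM, VIM, FN1 and COL1A1 having the highest medians. The label of a cardiomyocyte-like cell is therefore not borne out by 16 of the 17 cardiomyocyte markers. Judged on 449 pseudogenes, 6 libraries (RPL3L-WT 1 and 2, G27D 3, R161W 1, T189M 1 and 2) stood apart from the other 24, a division absent from the labels and called first kind (24) and second kind (6) here. Their gap along the first principal component was 16.4 against 1.65 for the next widest. Between the kinds 8344 of 14426 genes differed, so each fold change is given pooled and, where it matters, with the kind as a term in the model. The depth of the libraries is unknown, because TPM does not keep it.

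The stretches upstream of the chaperone genes are shown because they carry the sequence through which HSF1 acts. RefSeq promoter entries (GRCh38.p14) matched all 10 members, in 13 entries, and the 250 bases before each start were searched on both strands for a pair of inverted units, GAANNTTC or TTCNNGAA, and for 3 alternating units, GAANNTTCNNGAA or TTCNNGAANNTTC, which contain the pairs. Capitals mark matched letters, the sequences read 5′ to 3′ along the gene's strand, and they stop before the first base that GENCODE 29 annotates as exonic.
HSPA1A, plus strand, chr6:31815293-31815463: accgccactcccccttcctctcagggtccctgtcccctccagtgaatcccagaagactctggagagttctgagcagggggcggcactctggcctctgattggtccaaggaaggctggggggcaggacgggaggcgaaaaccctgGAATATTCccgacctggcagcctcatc
HSPA1B, plus strand, chr6:31827488-31827734: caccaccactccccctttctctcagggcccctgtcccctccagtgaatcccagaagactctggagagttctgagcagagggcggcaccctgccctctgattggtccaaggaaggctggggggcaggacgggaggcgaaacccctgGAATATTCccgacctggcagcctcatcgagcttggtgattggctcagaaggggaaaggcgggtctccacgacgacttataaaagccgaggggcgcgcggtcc
HSPA6, plus strand, chr1:161524290-161524539: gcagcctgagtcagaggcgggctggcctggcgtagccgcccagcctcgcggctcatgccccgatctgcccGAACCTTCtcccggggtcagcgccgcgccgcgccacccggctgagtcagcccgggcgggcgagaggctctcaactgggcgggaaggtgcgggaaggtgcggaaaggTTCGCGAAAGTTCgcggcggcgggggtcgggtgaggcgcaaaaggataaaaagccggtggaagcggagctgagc
DNAJB1 at its second listed start, minus strand, chr19:14518421-14518647: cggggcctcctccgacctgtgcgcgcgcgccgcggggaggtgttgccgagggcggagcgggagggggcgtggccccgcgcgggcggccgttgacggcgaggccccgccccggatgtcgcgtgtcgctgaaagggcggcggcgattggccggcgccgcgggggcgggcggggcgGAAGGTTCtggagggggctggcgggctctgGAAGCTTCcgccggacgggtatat
HSPA1A and HSPA1B each held 1 pair, with the same letters, which began 106 bases before the start of HSPA1A and 105 bases before that of HSPA1B. DNAJB1 held 2 pairs. HSPA6 held 3 pairs, 2 of which overlap in a run of 3 units.

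Runs of 3 units were found for 3 of the 10 members, each shown with 7 flanking bases a side.
HSPA6, plus strand, chr1:161524459-161524485: ggaaaggTTCGCGAAAGTTCgcggcgg
HSPA8, minus strand, chr11:123062347-123062373: cgagcttGAAAGTTCCAGAAcgctgcg
HSPA8, minus strand, chr11:123062172-123062198: gggccccTTCTGGAAGGTTCtaagata
HSP90AA1 at its second listed start, minus strand, chr14:102087113-102087139: agggttcTTCCGGAAGGTTCgggaggc
Both runs of HSPA8 and that of HSP90AA1 lie in bases that GENCODE 29 annotates as exonic. Of the 10 members, 7 held a pair in at least 1 entry, HSPB1 being the seventh. Counted by entry, a pair was found in 7 of the 13 (53.8%) and a run of 3 units in 3 (23.1%). Over all 35116 RefSeq promoter entries a pair was found in 11.6% and a run of 3 units in 0.441%. No pair was found in the windows of HSPH1, BAG3 and HSPE1, which says no more than that these letters are not there.

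**Figure D1:**
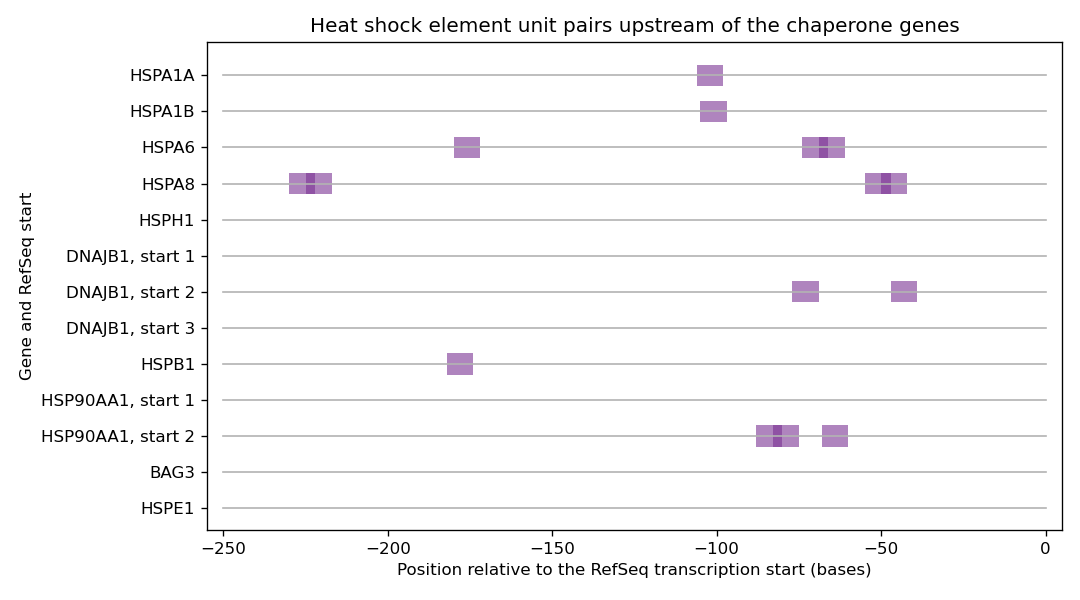
Positions of paired heat shock units in the 250 bases before each RefSeq start, one line per entry, with the x axis in bases from the start; darker purple marks where 2 pairs overlap in a run of 3 units. Pairs appear in 7 of 13 entries, and HSPA6, HSPA8 and the second start of HSP90AA1 hold the runs of 3 units.

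The abundant members were HSPA8, the HSP70 protein made at rest, HSP90AA1, the inducible cytosolic HSP90, HSPB1, the small heat shock protein HSP27, and HSPE1, the co-chaperonin HSP10, which works in mitochondria and so is not cytosolic as the group's name has it, though HSF1 drives its gene too. Per-group means were 1151 to 2727 TPM for HSPA8, 1363 to 2075 TPM for HSP90AA1, 1372 to 2109 TPM for HSPB1 and 571 to 1115 TPM for HSPE1. HSPA1A and HSPA1B, the stress-inducible HSP70 pair, lay lower, and HSPA6, a strictly inducible HSP70, averaged no more than 9.52 TPM in any group. The ratio of the highest to the lowest group mean was 15.3 for HSPA6, 5.36 for HSPA1A, 3.81 for HSPA1B and 2.37 for HSPA8. For HSPE1, DNAJB1, BAG3, HSPB1, HSP90AA1 and HSPH1 it was between 1.39 and 1.95. The inducible HSP70 genes thus varied most between groups, and HSPH1 least.

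D308V had the lowest mean of 7 of the 10 members. shRPL3 was lowest for HSPA6, and D308N for HSP90AA1 and HSPE1. All 10 members differed among the 10 groups by limma's moderated F test, where 73.4% of all genes tested did. HSPA1A ranked 14th of the 14426 genes by that statistic and HSPA6 ranked 133rd, while HSPH1 ranked 4686th.

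In the order of group means, HSPA1A was 319 TPM in RPL3L-WT, 304 in T189M, 289.5 in P291L, 233 in R161W, 202 in shScramble, 198 in G27D, 85.5 in D308N, 82.9 in R343W, 69.5 in shRPL3 and 59.5 in D308V. The libraries of the first 3 of these groups overlapped from neighbour to neighbour, as did those of the next 3, while P291L and R161W did not overlap. Among the last 4 groups D308N and R343W overlapped, and R343W, shRPL3 and D308V were separate from each other. No library of these 4 reached the 176 TPM of the lowest shScramble library. HSPA1B fell into the same upper 6 and lower 4 groups, and so did HSPA6, which was highest in P291L at 8.69, 9.78 and 10.1 TPM. The 10 members together summed to 5120.3 TPM in D308V at the lowest and 8990.2 TPM in T189M at the highest.

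**Figure D2:**
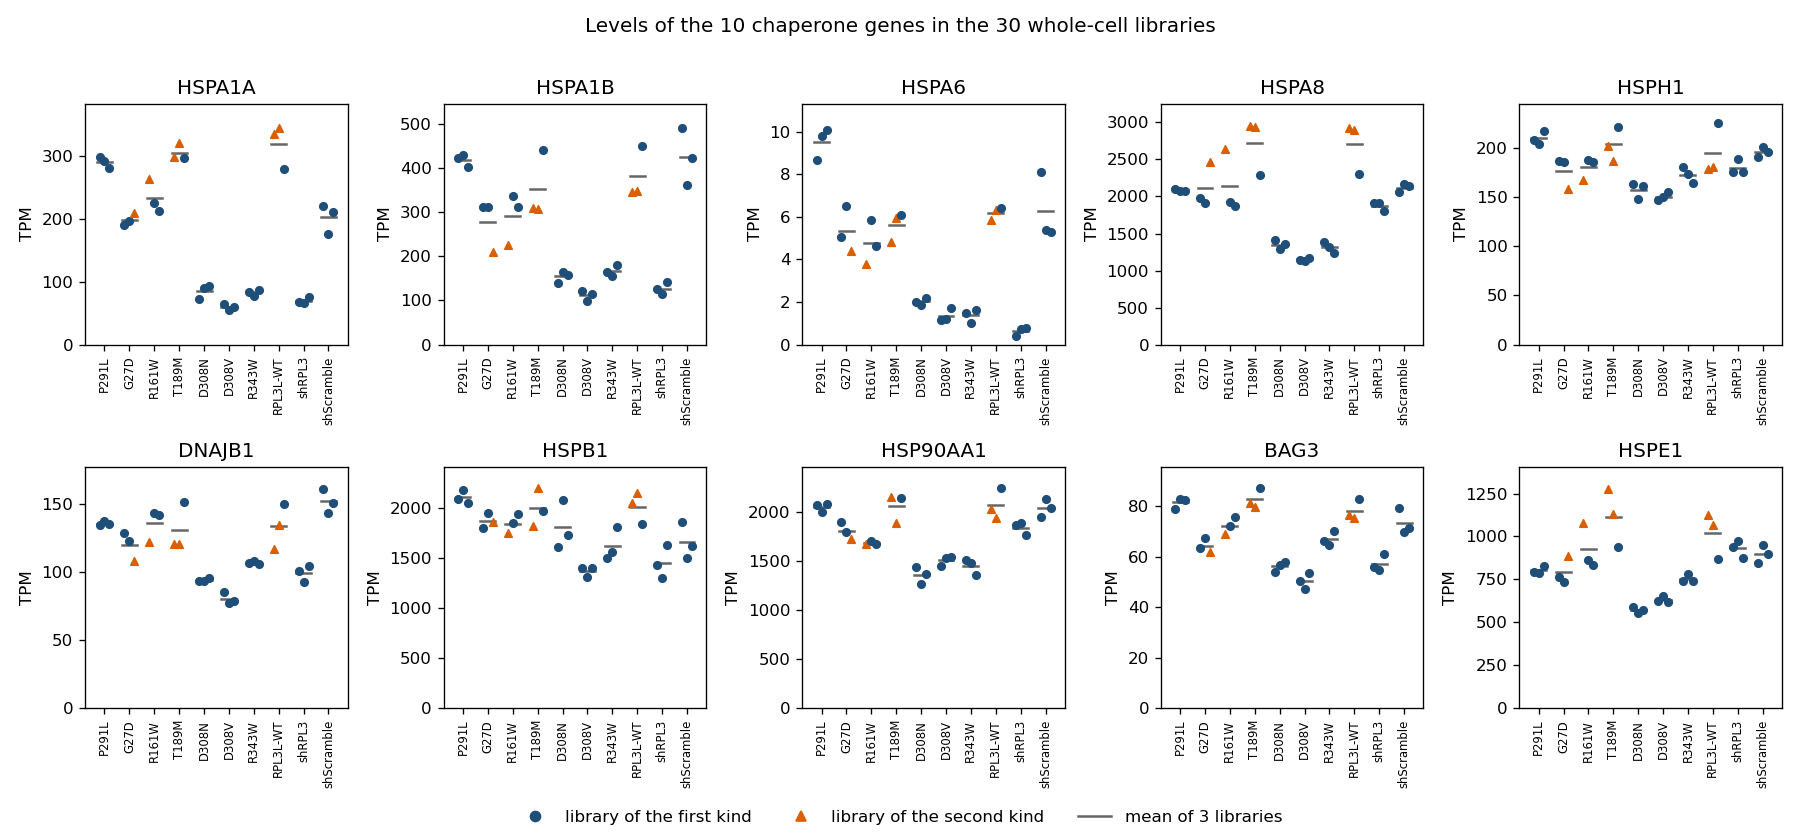
TPM of each of the 10 chaperone genes (y axis, from 0) in the 3 libraries of each of 10 groups (x axis); circles are libraries of the first kind, triangles of the second kind, and bars group means. HSPA1A, HSPA1B and HSPA6 sit low in D308N, D308V, R343W and shRPL3, and HSPA8 and HSPE1 sit high in the triangles.

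HSPA1A and HSPA1B code for the same protein and lie side by side on chromosome 6, HSPA1A at 31815464 to 31817946 and HSPA1B at 31827735 to 31830255 (GRCh38, GENCODE 29, plus strand). Of the 31-base words in GENCODE transcripts of HSPA1A, 73.6% occurred in HSPA1B too, so how reads were divided between them is uncertain. The ratio of HSPA1A to HSPA1B was 0.956 to 1.16 in the 6 libraries of the second kind and 0.449 to 0.704 in the 24 of the first, with no overlap. In R161W it was 1.16 in replicate 1, of the second kind, and 0.668 and 0.679 in the other two. The sum of the pair was steadier in RPL3L-WT, at 681, 692 and 729 TPM, although replicate 3 is of the other kind. It was 502, 507 and 418 TPM in G27D, 488, 563 and 523 TPM in R161W and 608, 628 and 738 TPM in T189M. In each of these lines the second-kind libraries had the lowest sums, so summing did not remove the difference between the kinds. Results for the pair are therefore given gene by gene and as a sum. HSPA6 shared 56.6% of its words with HSPA7, which did not exceed 0.441 TPM in any library, and BAG3 shared none with any gene.

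**Figure D3:**
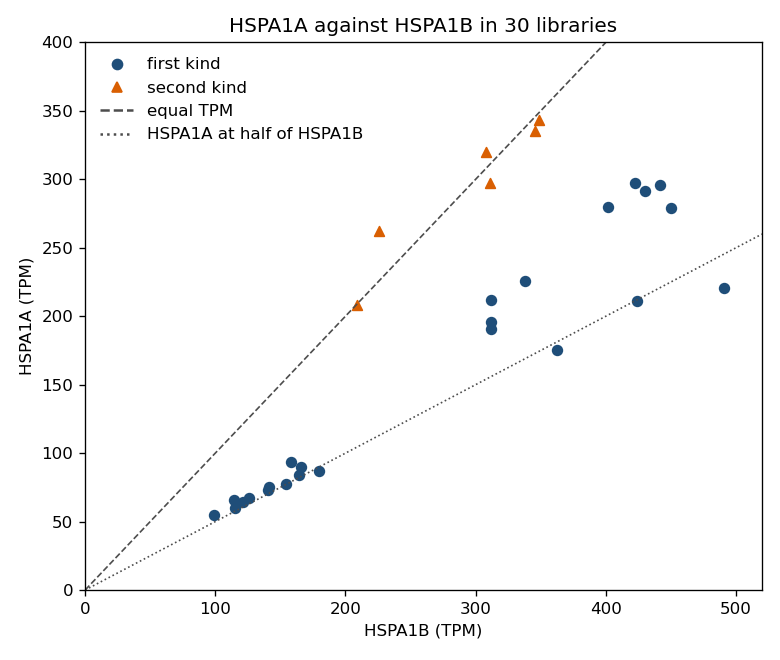
HSPA1A (y axis, TPM) against HSPA1B (x axis, TPM) in the 30 libraries; the dashed line marks equal TPM and the dotted line an HSPA1A level of 0.5 times HSPA1B. The 6 triangles, libraries of the second kind, lie along the dashed line with ratios of 0.956 to 1.16, and the circles lie below it.

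The kinds also differed in other members. In a fit that held the group fixed, libraries of the second kind were higher in HSPA8 by 0.38, in HSPE1 by 0.32 and in HSPA1A by 0.18 on the log2 scale. They were lower in HSPA1B (-0.50), DNAJB1 (-0.26), HSPH1 (-0.23), HSP90AA1 (-0.10) and BAG3 (-0.10), all past the threshold. HSPA6 (-0.23, adjusted p = 0.0772) and HSPB1 (0.02, adjusted p = 0.798) were not past it. What the kinds are was not tested.

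The first comparison set shRPL3 against shScramble, the knockdown of RPL3 with no RPL3L construct. The inducible HSP70 genes fell most. HSPA1A was at 67.2, 66.0 and 75.5 TPM in shRPL3, against 220.3, 176 and 211 TPM in shScramble. HSPA1B was at 126, 114 and 141 TPM in shRPL3, against 491, 363 and 424 TPM in shScramble. HSPA6 was at 0.385, 0.718 and 0.762 TPM in shRPL3, against 8.12, 5.40 and 5.28 TPM in shScramble. For all 3 genes every shRPL3 library lay below every shScramble library. The log2 fold changes were -1.52 (SE 0.10, adjusted p = 7.97e-11) for HSPA1A, -1.73 (SE 0.17, adjusted p = 2.67e-08) for HSPA1B, -2.15 (SE 0.16, adjusted p = 3.77e-10) for HSPA6 and -1.67 (SE 0.11, adjusted p = 3.14e-11) for the sum of HSPA1A and HSPA1B.

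Their partners fell less. DNAJB1, the HSP40 that delivers clients to HSP70, averaged 99.2 ± 6.03 TPM in shRPL3 and 152 ± 8.82 TPM in shScramble, or -0.61 (SE 0.09, adjusted p = 1.35e-05) on the log2 scale. BAG3, which frees clients from HSP70 and feeds them to autophagy, averaged 57.2 ± 3.35 TPM in shRPL3 and 73.5 ± 5.05 TPM in shScramble, or -0.36 (SE 0.06, adjusted p = 0.000117). In all 5 of 10 members fell and 0 rose, where 18.0% of all genes tested fell. The kind term left these fold changes as they were and narrowed the spread, and HSPA8 (-0.18), HSPH1 (-0.12) and HSP90AA1 (-0.15) also fell, making 8 where 24.5% of all genes fell. HSPB1 (-0.20, 95% interval -0.41 to 0.01) and HSPE1 (0.05, 95% interval -0.16 to 0.27) did not pass in either fit. Leaving out any 1 of the 6 libraries left 5 members called. The summed leukocyte markers, nearly all CD68, were 62.2 to 67.3 TPM in shRPL3 and 117 to 132 TPM in shScramble, and their part in these changes was not tested. As in any bulk sample, fewer cells with a transcript and less of it per cell cannot be told apart.

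The second comparison set RPL3L-WT against shRPL3, the addition of wild-type RPL3L to cells low in RPL3. It shares the shRPL3 libraries with the comparison before it. The inducible HSP70 genes were higher in RPL3L-WT. HSPA1A was at 335, 343.2 and 279 TPM in RPL3L-WT, against 67.2, 66.0 and 75.5 TPM in shRPL3. HSPA1B was at 346, 349 and 450.5 TPM in RPL3L-WT, against 126, 114 and 141 TPM in shRPL3. HSPA6 was at 5.84, 6.32 and 6.41 TPM in RPL3L-WT, against 0.385, 0.718 and 0.762 TPM in shRPL3. In each, the lowest RPL3L-WT library was well above the highest shRPL3 library, whichever kind it was of. The log2 fold changes were 2.18 (SE 0.10, adjusted p = 8.13e-13) for HSPA1A, 1.57 (SE 0.17, adjusted p = 7.59e-07) for HSPA1B and 2.16 (SE 0.16, adjusted p = 3.58e-09) for HSPA6. The kind term gave 2.06, 1.90 and 2.31, in that order.

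HSPA8 rose too, to 2705 ± 352 TPM in RPL3L-WT against 1876 ± 60.7 TPM in shRPL3, which is 0.52 (SE 0.12, adjusted p = 0.00198) pooled and 0.27 with the kind as a term. DNAJB1 (0.42), BAG3 (0.45) and HSPB1 (0.47) rose as well, and with the kind term they stood at 0.59, 0.51 and 0.46. DNAJB1 missed the threshold when only the 6 libraries of these 2 groups were fitted, and HSPB1 missed it with the second-kind libraries left out. That made 7 of 10 members higher and 0 lower, where 5.77% of all genes tested were higher. With the kind term it was 9 of 10, HSPH1 (0.26) and HSP90AA1 (0.23) being added, where 6.27% of all genes were higher. HSPE1 did not pass in either fit, with 95% intervals of -0.09 to 0.34 pooled and -0.19 to 0.02 with the kind term. The median of the members was 0.46 while that of all genes tested was -0.19. The summed leukocyte markers were 116 to 235 TPM in RPL3L-WT and 62.2 to 67.3 TPM in shRPL3, and the epithelial ones 282.5 to 330.5 TPM in RPL3L-WT and 216 to 234.5 TPM in shRPL3. Their part was not tested.

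Replicate 3 of shRPL3, a line without a construct, held 121 TPM of RPL3L, against 0.029 and 0.0353 TPM in replicates 1 and 2. It also had the highest HSPA1A, HSPA1B, HSPA6, DNAJB1, BAG3 and HSPB1 of its group and the lowest HSPA8, HSP90AA1 and HSPE1. Without it 5 members fell from shScramble, as with it.

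In RPL3L-WT against shScramble, 7 of 10 members did not pass the test. HSPA1A was higher, at 335, 343.2 and 279 TPM in RPL3L-WT against 220.3, 176 and 211 TPM in shScramble (0.65, adjusted p = 1.87e-05), while the sum of HSPA1A and HSPA1B was at 681, 692 and 729 TPM in RPL3L-WT against 712, 538 and 636 TPM in shScramble, and overlapped. The log2 fold change of the sum was 0.17 (SE 0.11, adjusted p = 0.202), or 0.29 (adjusted p = 0.0163) with the kind term. HSPA6 averaged 6.19 ± 0.302 TPM in RPL3L-WT and 6.27 ± 1.61 TPM in shScramble, with a 95% interval of -0.32 to 0.33 for the log2 fold change. In all 3 members were higher and 0 lower, where 12.1% of all genes tested were higher. Beside HSPA1A these were HSPA8 (0.34, 0.09 and not past the threshold with the kind term) and HSPB1 (0.28, likewise 0.26). HSPA8 also missed the threshold without shScramble 1, and HSPB1 without shScramble 2 or shScramble 3. The kind term also called 3 higher, HSPA1A, HSPH1 and BAG3, where 15.6% of all genes were. The pooled count was 1 without RPL3L-WT 1, 1 without RPL3L-WT 2, 5 without RPL3L-WT 3 and 7 with median-ratio scaling, where all genes tested had a median of 0.01, against -0.18 without scaling (log2 fold change). HSPH1 was at -0.02 pooled and turned to 0.20 with that scaling and 0.14 with the kind term.

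Each of the 7 variant lines was then compared with RPL3L-WT, whose 3 libraries are common to these comparisons. By HSPA1A they fell into lines that overlapped with RPL3L-WT, lines moderately below it and lines far below it.

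No member passed the test in P291L or T189M against RPL3L-WT. HSPA1A was at 297, 291.4 and 279.8 TPM in P291L and 297, 319.7 and 296 TPM in T189M, against 335, 343.2 and 279 TPM in RPL3L-WT, and the groups overlapped. Limma called 0 of 10 members in either line, where 2.75% of all genes tested were called in P291L and 1.80% in T189M. The kind term called none either, where 1.98% and 10.6% of all genes were called. At an unadjusted p under 0.05 the pooled fit held 3 of the 10 members in P291L and 0 in T189M. The 95% intervals of the log2 fold change were -0.34 to 0.08 for HSPA1A and -0.20 to 0.49 for HSPA1B in P291L, and -0.27 to 0.15 and -0.47 to 0.22 in T189M. With the kind term those in P291L were -0.21 to 0.18 for HSPA1A and -0.40 to 0.02 for HSPA1B. HSPA6 was at 8.69, 9.78 and 10.1 TPM in P291L against 5.84, 6.32 and 6.41 TPM in RPL3L-WT, every library above, and did not pass (0.55, adjusted p = 0.0582). HSPA8 was at 2096, 2079 and 2068 TPM in P291L against 2925, 2892 and 2299 TPM in RPL3L-WT (-0.37, adjusted p = 0.0756, and -0.12 with the kind term). HSPE1 was at 795, 785 and 826 TPM in P291L against 1126, 1068 and 871 TPM in RPL3L-WT (-0.34, adjusted p = 0.0701, and -0.13 with the kind term). Every P291L library lay below every RPL3L-WT library in both. Without RPL3L-WT 3, which leaves RPL3L-WT with the second kind alone, 4 members were called in P291L. T189M has the same mix of kinds as RPL3L-WT. Its RPL3 was higher, at 780, 802 and 1246 TPM against 445, 439 and 673 TPM in RPL3L-WT, with no overlap. The changed residue and the higher RPL3 cannot be told apart in T189M.

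HSPA1A and its sum with HSPA1B were moderately lower in G27D and R161W. HSPA1A was at 190.5, 196 and 208 TPM in G27D and 262, 226 and 212 TPM in R161W, against 335, 343.2 and 279 TPM in RPL3L-WT, with every library of both lines below every RPL3L-WT library. The log2 fold changes of HSPA1A were -0.68 (SE 0.10, adjusted p = 0.00031) in G27D and -0.45 (SE 0.10, adjusted p = 0.00396) in R161W. Those of the sum of HSPA1A and HSPA1B were -0.56 (SE 0.11, adjusted p = 0.00315) in G27D and -0.42 (SE 0.11, adjusted p = 0.00845) in R161W. HSPA1B alone did not pass in G27D (-0.47, adjusted p = 0.128) or R161W (-0.40, adjusted p = 0.106). It passed in both with the kind term (-0.64 and -0.56). HSPA6 overlapped with RPL3L-WT and did not pass in G27D (-0.20, adjusted p = 0.529) or R161W (-0.34, adjusted p = 0.148). With the kind term HSPA6 passed in R161W only (-0.41, adjusted p = 0.0463). BAG3 was also lower in G27D (-0.28, adjusted p = 0.0154), and HSP90AA1 in R161W (-0.29, adjusted p = 0.00385). HSPA8 was also lower in R161W (-0.34, adjusted p = 0.0466, and -0.22 with the kind term), a call lost without RPL3L-WT 1, RPL3L-WT 2, R161W 2 or R161W 3. HSPA1A in R161W was not past the threshold without the second-kind libraries. The pooled fit called 2 of 10 members lower in G27D, where 1.77% of all genes were lower, and 3 of 10 in R161W, where 4.07% were.

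Under the kind term these counts were 8 of 10 in G27D and 6 of 10 in R161W, where 6.02% and 8.87% of all genes were lower. In a limma fit of the 6 libraries of each comparison alone they were 0 and 0, with 4 and 2 members at an unadjusted p under 0.05. The count in G27D was 4 without RPL3L-WT 3, 4 without G27D 3 and 1 without G27D 1. R161W had 1438 TPM of RPL3 on average and RPL3L-WT 519 TPM, so the changed residue and the higher RPL3 cannot be told apart. Summed fibroblast markers were 5116 to 5511 TPM in G27D and 6491 to 6913 TPM in RPL3L-WT, and their part was not tested.

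D308N, D308V and R343W were lower in nearly every member, most in the HSP70 genes. HSPA1A was at 73.0, 90.03 and 93.6 TPM in D308N, 64.2, 54.6 and 59.8 TPM in D308V and 84.2, 77.3 and 87.3 TPM in R343W, against 335, 343.2 and 279 TPM in RPL3L-WT. HSPA1B was at 140.2, 165 and 158 TPM in D308N, 122, 98.7 and 115 TPM in D308V and 164, 155 and 179 TPM in R343W, against 346, 349 and 450.5 TPM in RPL3L-WT. HSPA6 was at 2.01, 1.88 and 2.20 TPM in D308N, 1.13, 1.19 and 1.71 TPM in D308V and 1.49, 1.02 and 1.63 TPM in R343W, against 5.84, 6.32 and 6.41 TPM in RPL3L-WT. None of the 9 variant libraries reached the lowest RPL3L-WT library in any of the 3 genes. The sum of HSPA1A and HSPA1B changed by -1.55 (SE 0.11, adjusted p = 3.24e-10) in D308N, -2.03 (SE 0.11, adjusted p = 2.07e-12) in D308V and -1.49 (SE 0.11, adjusted p = 4.3e-10) in R343W on the log2 scale. The kind term gave -1.67 in D308N, -2.16 in D308V and -1.62 in R343W.

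HSPA8 averaged 1352 ± 60.0 TPM in D308N, 1151 ± 18.2 TPM in D308V and 1315 ± 73.6 TPM in R343W, against 2705 ± 352 TPM in RPL3L-WT, and fell by 0.99 in D308N, by 1.22 in D308V and by 1.03 in R343W. Its values with the kind term were -0.74 in D308N, -0.97 in D308V and -0.78 in R343W. HSP90AA1 averaged 1363 ± 85.8 TPM in D308N, 1512 ± 47.8 TPM in D308V and 1455 ± 80.3 TPM in R343W, against 2075 ± 159.9 TPM in RPL3L-WT, and fell in all 3 lines. HSPE1 averaged 571 ± 16.5 TPM in D308N, 631 ± 18.9 TPM in D308V and 755 ± 22.3 TPM in R343W, against 1022 ± 134 TPM in RPL3L-WT. It fell in all 3 lines too, at -0.83, -0.69 and -0.43 pooled, or -0.62, -0.47 and -0.21 with the kind term. DNAJB1 was at -0.49 in D308N, -0.72 in D308V and -0.32 in R343W (-0.49 with the kind term), and BAG3 at -0.47, -0.62 and -0.22, all past the threshold. Both calls in R343W were lost in the fit of its 6 libraries alone.

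In all 9 of 10 members fell in D308N, 10 of 10 in D308V and 9 of 10 in R343W, and 0 rose, where 9.48%, 9.03% and 9.19% of all genes tested fell. The kind term gave 9, 10 and 10, where 12.8%, 12.7% and 12.6% of all genes fell. The exceptions were HSPB1 in D308N (-0.16, 95% interval -0.37 to 0.05) and HSPH1 in R343W (-0.16, 95% interval -0.33 to 0.01). HSPH1, the HSP110 that resets HSP70, was at -0.31 in R343W with the kind term (adjusted p = 4.39e-05). HSPH1 in D308N missed the threshold without RPL3L-WT 3, and in D308N and D308V in fits of their 6 libraries alone. BAG3 in R343W missed it without R343W 2, and HSPB1 in R343W (-0.31) missed it without RPL3L-WT 1, RPL3L-WT 2, R343W 1 or R343W 2. Only 1 of the 3 RPL3L-WT libraries, replicate 3, is of the same kind as these 9, and it held 279 TPM of HSPA1A, 450.5 of HSPA1B, 2299 of HSPA8 and 871 of HSPE1, above every library of the 3 lines in each. The median log2 fold change over every gene tested against RPL3L-WT was 0.13 in D308N, 0.11 in D308V and 0.13 in R343W, and 0.10 in R161W. Summed fibroblast markers were 5032 to 5233 TPM in D308N, 5237 to 5623 TPM in D308V and 5296 to 5521 TPM in R343W, against 6491 to 6913 TPM in RPL3L-WT. Summed leukocyte markers were 72.9 to 80.4 TPM in D308N, 96.34 to 99.85 TPM in D308V and 143.5 to 153 TPM in R343W, against 116 to 235 TPM in RPL3L-WT. Summed epithelial markers, mostly KRT18, were 277 to 298 TPM in D308N, 211 to 228 TPM in D308V and 214 to 225 TPM in R343W, against 282.5 to 330.5 TPM in RPL3L-WT. The part of these markers in the result was not tested.

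**Figure D4:**
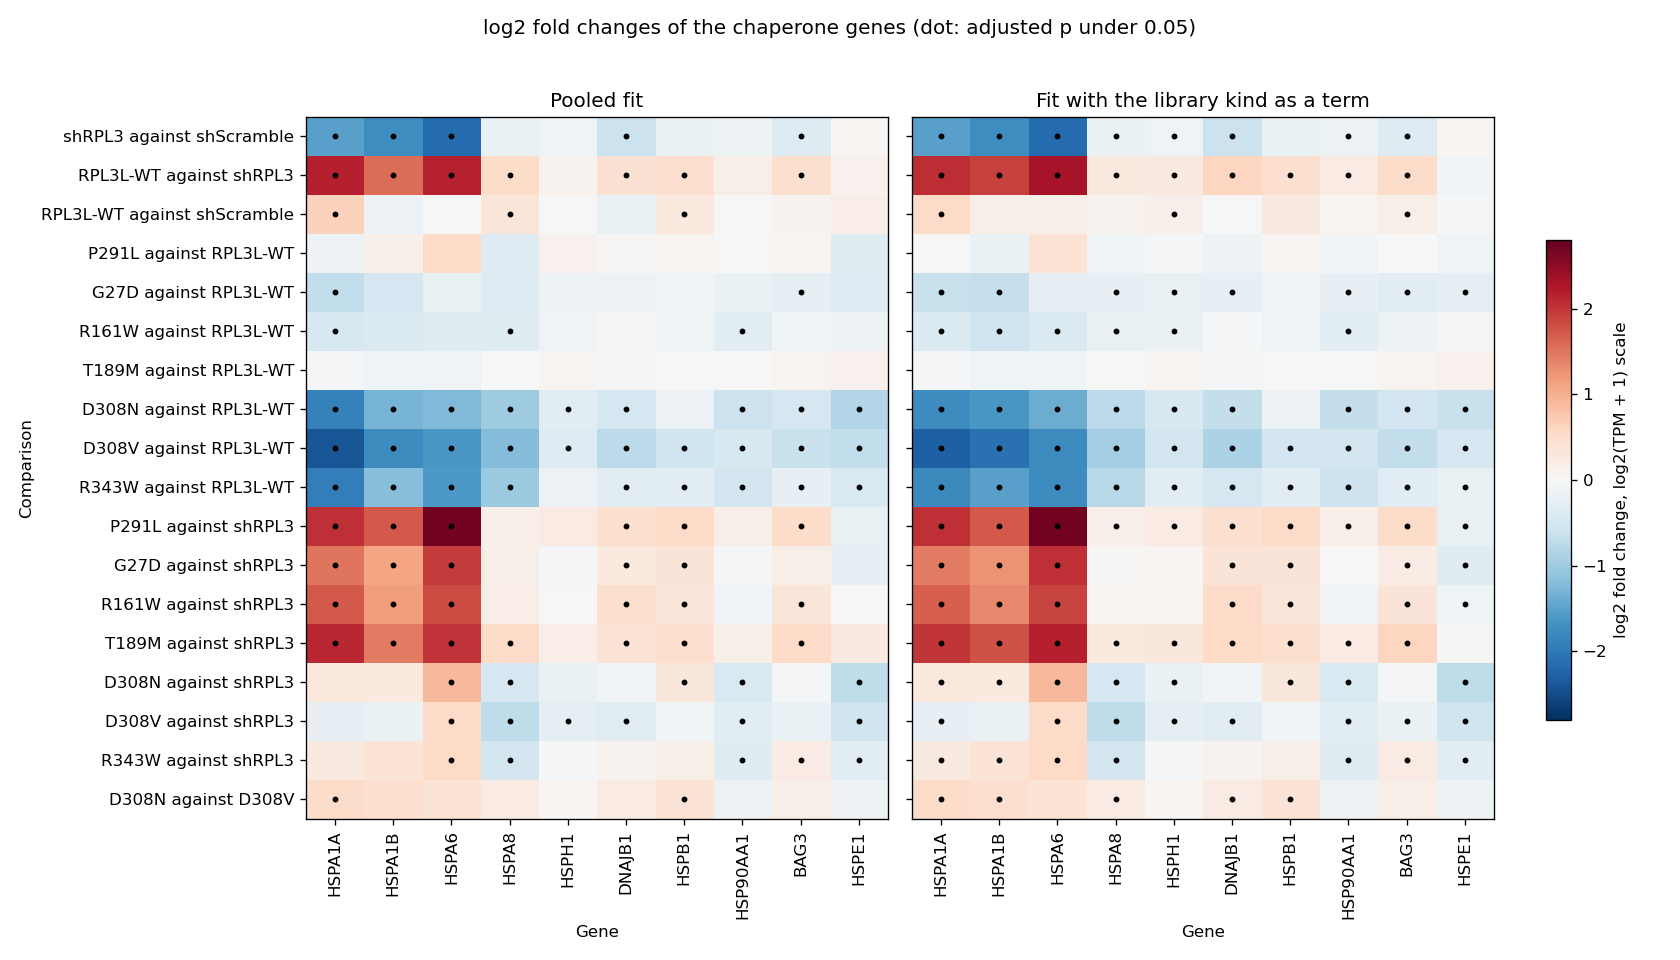
log2 fold changes of the 10 chaperone genes (columns) in 18 comparisons (rows), on the log2(TPM + 1) scale, from the pooled fit at left and with the library kind as a term at right; red is higher and blue lower in the first-named group, and a dot marks an adjusted p under 0.05. The rows of D308N, D308V and R343W against RPL3L-WT are blue throughout, down to -2.40 for HSPA1A in D308V, and HSPA1A, HSPA1B and HSPA6 are red in those of P291L, G27D, R161W and T189M against shRPL3, up to 2.70 for HSPA6 in P291L.

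The variants were also set against shRPL3, the cells with the hairpin and no RPL3L construct, whose 3 libraries these comparisons share. In P291L, G27D, R161W and T189M the inducible HSP70 genes were far above it. The sum of HSPA1A and HSPA1B was at 719.9, 722 and 682 TPM in P291L, 502, 507 and 418 TPM in G27D, 488, 563 and 523 TPM in R161W and 608, 628 and 738 TPM in T189M, against 193, 180.2 and 217 TPM in shRPL3. No library of these lines overlapped with shRPL3. Its log2 fold change was 1.85 in P291L, 1.27 in G27D, 1.41 in R161W and 1.74 in T189M (SE 0.11 each), with adjusted p of at most 2.53e-08. HSPA6 changed by 2.70 in P291L, 1.96 in G27D, 1.82 in R161W and 2.03 in T189M.

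Of the 10 members 6 were higher in P291L, 5 in G27D, 6 in R161W and 7 in T189M and 0 were lower, where 4.67%, 2.41%, 8.36% and 8.42% of all genes tested were higher. HSPA1A, HSPA1B, HSPA6, DNAJB1 and HSPB1 were higher in all 4 lines. DNAJB1 in G27D (0.27) lost its call without any 1 of 5 of the 6 libraries, G27D 3 being the exception, and HSPB1 in G27D lost it without shRPL3 2, so that 3 members were called without that library. HSPB1 in R161W lost it without shRPL3 2 or R161W 3. Under the kind term 9 members were higher in P291L, 6 in G27D, 6 in R161W and 9 in T189M, where 8.52%, 5.02%, 14.3% and 10.8% of all genes were higher. HSPE1 was then lower than in shRPL3 in P291L (-0.21), G27D (-0.34) and R161W (-0.12), where 27.3%, 20.5% and 21.8% of all genes were lower.

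In D308N, D308V and R343W the inducible pair lay much nearer to shRPL3. The sum of HSPA1A and HSPA1B was at 213, 256 and 251 TPM in D308N, 186, 153 and 175 TPM in D308V and 248, 232 and 267 TPM in R343W, against 193, 180.2 and 217 TPM in shRPL3. D308N was above shRPL3 in 2 of 3 libraries, D308V overlapped with it, and R343W was above it. The log2 fold change was 0.29 (SE 0.11, adjusted p = 0.0622) in D308N, -0.20 (SE 0.11, adjusted p = 0.223) in D308V and 0.34 (SE 0.11, adjusted p = 0.024) in R343W, the last past the threshold, while neither gene of the pair passed alone in R343W. The sum in D308N also passed with the kind term (0.29, adjusted p = 0.0129). HSPA6 was higher in all 3 lines, with 0.91 in D308N (adjusted p = 0.00022), 0.53 in D308V (adjusted p = 0.0225) and 0.55 in R343W (adjusted p = 0.0147). The call in D308V was lost without shRPL3 1 or D308V 3, and that in R343W without shRPL3 1, R343W 1 or R343W 3.

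Of the abundant members HSPA8, HSPE1 and HSP90AA1 fell below shRPL3 in these lines. HSPB1 did not, at 0.32 in D308N, -0.08 in D308V and 0.16 in R343W, past the threshold in D308N alone. HSPA8 was at 1411, 1291 and 1353 TPM in D308N, 1148, 1135 and 1171 TPM in D308V and 1388, 1315 and 1241 TPM in R343W, against 1916, 1905 and 1806 TPM in shRPL3. HSPE1 was at 587, 554 and 571 TPM in D308N, 625, 652 and 615 TPM in D308V and 742, 780.5 and 741 TPM in R343W, against 940.2, 973 and 877 TPM in shRPL3. HSP90AA1 was at 1443, 1272 and 1372 TPM in D308N, 1457, 1533 and 1546 TPM in D308V and 1517, 1483 and 1364 TPM in R343W, against 1867, 1896 and 1767 TPM in shRPL3. In all 3 genes and all 3 lines every variant library lay below every shRPL3 library. The log2 fold changes were -0.47, -0.70 and -0.51 for HSPA8 in D308N, D308V and R343W, -0.44, -0.29 and -0.34 for HSP90AA1, and -0.70, -0.56 and -0.30 for HSPE1. HSPE1 in R343W (adjusted p = 0.046) lost its call without any 1 of the 6 libraries, and HSPE1 in R343W and HSPA8 in D308N lost it with median-ratio scaling.

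Members called in either direction were 5 in D308N (2 higher, 3 lower), 6 in D308V (1 higher, 5 lower) and 5 in R343W (2 higher, 3 lower). Of all genes tested, 5.73% were higher and 12.4% lower in D308N, 5.19% higher and 11.1% lower in D308V, and 7.22% higher and 12.4% lower in R343W. HSPB1 was the second member higher in D308N (0.32), lost without shRPL3 1, shRPL3 2, D308N 2 or D308N 3. BAG3 was the second higher in R343W (0.23), lost without shRPL3 1, shRPL3 2 or R343W 3. DNAJB1 (-0.30) and HSPH1 (-0.25) were the other two lower in D308V, HSPH1 lost without any 1 of the 6 libraries and DNAJB1 without shRPL3 1, shRPL3 3, D308V 2 or D308V 3. The count in D308V was 3 without shRPL3 1. That in R343W was 2 without shRPL3 1 or R343W 3 and 3 without shRPL3 2 or R343W 1. All libraries of these 3 lines and of shRPL3 are of the first kind. With the kind term, which narrows the spread, the counts were 8 in D308N (4 higher, 4 lower), 8 in D308V (1 higher, 7 lower) and 7 in R343W (4 higher, 3 lower). Of all genes 11.2% were then higher and 22.2% lower in D308N, 9.67% and 22.4% in D308V, and 12.7% and 22.8% in R343W. HSPA1A was above shRPL3 in D308N (0.29) and R343W (0.25) in that fit and below it in D308V (-0.22). Summed fibroblast markers were 6345 to 6688 TPM in shRPL3, above the 3 lines.

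D308N and D308V change the same residue. HSPA1A was at 73.0, 90.03 and 93.6 TPM in D308N, against 64.2, 54.6 and 59.8 TPM in D308V, with no overlap, and the log2 fold change was 0.51 (SE 0.10, adjusted p = 0.00857). The sum of HSPA1A and HSPA1B changed by 0.48 (SE 0.11, adjusted p = 0.0161). HSPB1 was at 1615, 2086 and 1736 TPM in D308N, against 1403, 1312 and 1400.1 TPM in D308V (0.39, adjusted p = 0.0455). These were the 2 of 10 members that were higher, where 0.776% of all genes tested were higher, and 0 were lower. The count was 1 without D308V 1 or D308V 3 and 0 without D308N 2, D308N 3 or D308V 2, and 5 with the kind as a term, where 4.07% of all genes were higher.

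HSPA8 (0.23), DNAJB1 (0.23) and HSPA1B (0.46) were the other 3 past the threshold with the kind term. HSPE1 and HSP90AA1 pointed the other way, at -0.15 and -0.15, and passed in neither fit.

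The level of RPL3L did not order the groups as the chaperones did. D308N had the highest RPL3L, 4951, 5198 and 5198 TPM, and 240.1 TPM of HSPA1A and HSPA1B together. T189M had the lowest mean RPL3L of the 8 lines, at 2190.3, 2145 and 3055 TPM, and 658 TPM of the pair. That rank rests on T189M 1 and 2, of the second kind. T189M 3, of the first kind, held more RPL3L than any library of D308V (at most 2984 TPM) or R343W (at most 2741 TPM). In RPL3L-WT too the second-kind libraries held less RPL3L, 2982 and 2791 TPM against 3798 TPM. RPL3 did not order all of them either. It averaged 674 TPM in P291L, 633 in G27D, 695 in D308N and 569 in D308V, on both sides of the step in HSPA1A. The G27D mean includes a second-kind library at 449 TPM, beside 723 and 727 TPM. The groups highest in RPL3, shScramble (1570 TPM), R161W (1438 TPM) and T189M (942 TPM), all lay above that step. So did RPL3L-WT, with the lowest mean (519 TPM). The part of RPL3 was not tested.

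**Figure D5:**
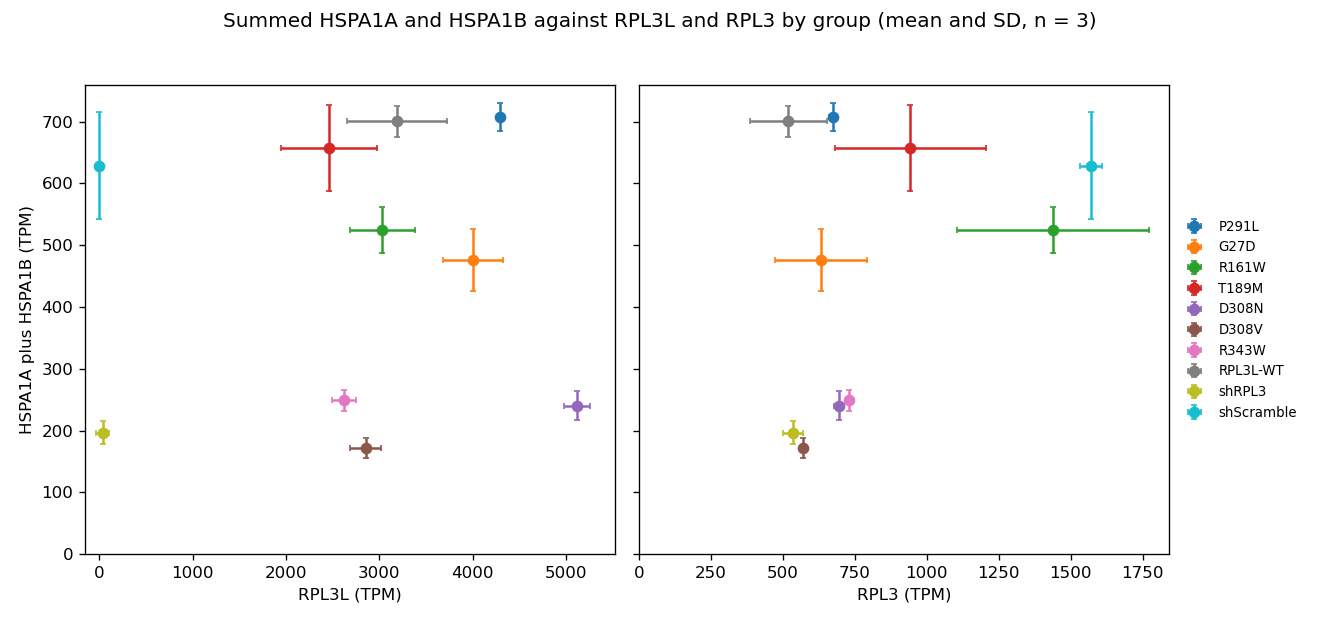
Summed HSPA1A and HSPA1B (y axis, TPM) against RPL3L (left) and RPL3 (right, both in TPM), as the mean and SD of 3 libraries for each of the 10 groups. D308N, D308V and R343W lie low, at 171 to 249 TPM of the pair, with RPL3L between 2622 and 5116 TPM, and shScramble is high with next to no RPL3L.

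Other genes of the pathway were taken from 6 lists of 61 genes, all in the table, of which 56 passed the filter on low values. They moved in both directions in most comparisons. In shRPL3 against shScramble 10 of 56 rose and 11 fell, where 17.2% of all genes tested rose and 18.0% fell, and with the kind term 23 rose and 13 fell, where 24.4% and 24.5% did. In RPL3L-WT against shRPL3 6 rose and 14 fell, where 5.77% of all genes rose and 30.2% fell, and with the kind term 11 rose and 15 fell, where 6.27% and 20.1% did. Against RPL3L-WT 10 rose and 19 fell in D308N, where 23.7% of all genes rose and 9.48% fell. In D308V 8 rose and 13 fell, where 21.6% of all genes rose and 9.03% fell. In R343W 12 rose and 12 fell, where 24.5% of all genes rose and 9.19% fell. With the kind term 5 rose and 17 fell in D308N, 10 rose and 17 fell in D308V, and 12 rose and 17 fell in R343W. Of all genes 17.5% then rose and 12.8% fell in D308N, 16.2% rose and 12.7% fell in D308V, and 18.8% rose and 12.6% fell in R343W. The medians of their log2 fold changes were -0.07 for RPL3L-WT against shRPL3 and -0.09, -0.06 and -0.03 for D308N, D308V and R343W against RPL3L-WT, beside 0.46 and -0.72, -0.71 and -0.47 for the 10 members.

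HSF1 itself averaged 79.3 TPM in RPL3L-WT and 107 TPM in shRPL3 (-0.44, adjusted p = 0.0234), a change that was -0.14 and not past the threshold with the kind as a term. Against RPL3L-WT the HSF1 transcript was higher in D308N (125 TPM, 0.66), D308V (116 TPM, 0.56) and R343W (145 TPM, 0.87), where the chaperones were lower. With the kind term it was higher by 0.36, 0.26 and 0.57, past the threshold in all 3. HSF4, a related factor, was lower in R343W, at 4.45 TPM against 11.3 TPM in RPL3L-WT (-1.15).

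Among other chaperones, HSPA2, an HSP70 gene most active in testis, averaged 6.59 TPM in RPL3L-WT and 4.49 TPM in shRPL3 (0.47). Against RPL3L-WT it was lower in D308N (-0.84), D308V (-0.95) and R343W (-1.12). The constitutive HSP90 gene HSP90AB1 and STIP1, which hands clients from HSP70 to HSP90, fell in D308N (-0.27 and -0.41) and D308V (-0.31 and -0.45) against RPL3L-WT. With the kind term HSP90AB1 was at -0.42 in D308N and -0.46 in D308V, and STIP1 at -0.25 in D308N and -0.29 in D308V. HSPD1, the mitochondrial chaperonin that works with HSPE1 and shares its promoter region, fell in D308N (-0.56, adjusted p = 0.000163). BAG1, a BAG protein that couples HSP70 to the proteasome, was lower in RPL3L-WT than in shRPL3 (-0.59) and higher than in RPL3L-WT in D308N (0.79), D308V (0.81) and R343W (0.74). BAG1 with the kind term was at -0.27 in RPL3L-WT against shRPL3, and at 0.47 in D308N, 0.48 in D308V and 0.42 in R343W against RPL3L-WT, past the threshold each time.

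HMOX1, a haem oxygenase and another HSF1 target, averaged 34.1 TPM in shRPL3 and 105 TPM in shScramble (-1.59), and 29.2 TPM in RPL3L-WT. It reached 113 TPM in D308V (1.96 against RPL3L-WT), 74.8 TPM in R343W (1.37) and 54.7 TPM in D308N (0.92). With the kind term these were 1.51 in D308V, 0.92 in R343W and 0.48 in D308N, past the threshold each time. ZFAND2A, an arsenite-inducible proteasome partner, was higher in shRPL3 than in shScramble (0.98), lower in RPL3L-WT than in shRPL3 (-0.65) and higher in D308N (1.02) and D308V (0.79) than in RPL3L-WT.

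Over the 30 libraries, the genes whose log2(TPM + 1) followed most closely that of the sum of HSPA1A and HSPA1B, among 10387 genes ranked, were S100A3 (Pearson r = 0.95), PDLIM1 (0.905), S100A10 (0.902), CCBE1 (0.902) and L1CAM (0.9). In the 24 libraries of the first kind r was 0.949 for S100A3, 0.915 for PDLIM1, 0.893 for S100A10, 0.896 for CCBE1 and 0.924 for L1CAM. These are descriptions, since libraries of a group are not independent points. S100A3 averaged 12.0 TPM in D308V and 17.7 TPM in D308N, against 27.7 TPM in RPL3L-WT, and 13.0 TPM in shRPL3 against 24.9 TPM in shScramble.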

How the data were processed

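PolyA-selected RNA of whole AC16 cells was sequenced in 30 libraries, 10 groups of 3. TPM values were deposited by the authors in a single gene table of 60612 entries, of which 6 were construct sequences and 60606 genes. All of its value columns matched a labelled library, leaving 0 unmatched. Bowtie, bedtools, kallisto and bcl2fastq 2.19 were used, per the submitters' processing notes, in roles that these do not give. Its index, annotation and build are not stated. TPM keeps no depth, so the precision that depth gives is unknown. A further 12 nuclear libraries with counts per rRNA region were not used here.

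Values were put on the scale log2(TPM + 1), that is with a pseudocount of 1, and tests covered the 14426 genes averaging 1 TPM or more. Such fold changes understate the change of low genes such as HSPA6. All 30 libraries went into 1 limma model with a mean per group, moderated by eBayes (trend and robust options). Tests were two-sided, p-values were adjusted over every gene tested by the Benjamini-Hochberg method, and 0.05 was the threshold. In a further model the library kind, which was read from pseudogene levels and not from the labels, entered as a term. Alternatives were a pseudocount of 0.1, no filter, median-ratio scaling, a replicate block, 2 groups only, no second-kind libraries, the sum of HSPA1A and HSPA1B, and each library left out. Intervals are 95% intervals of limma's moderated statistic.

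The members and lists were chosen with earlier results of these data known. All 10 members were tested and counted in each comparison, and the map of fold changes shows all 10. The text gives values for some of them, mostly those that passed the threshold. From the other lists the rule took up to 3 genes a direction and comparison that passed the threshold, averaged 5 TPM or more in their higher group and did not overlap, by size of the log2 fold change; some of these are described. HSP90AB1, STIP1, and HSF1 and HSPD1 where not taken by that rule, were named after their values were seen. Positions came from GRCh38 and GENCODE 29, 31-base words from GENCODE 29 transcripts, and promoters from RefSeq (GRCh38.p14). The fit was tested on simulated data. limma 3.58.1 ran in R 4.3.3. Tables and figures were made in Python 3.11.15 using pandas 2.3.3, matplotlib 3.10.9, numpy 2.4.6 and scipy 1.17.1.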

Additional observations from a re-analysis of the deposited data

How the results depend on the processing

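The count of members called moved by over 1.5 times under several alternatives, and the cause was not tested. With the kind as a term the count was 8 for shRPL3 against shScramble, 8 for G27D and 6 for R161W against RPL3L-WT, 10 for P291L and 8 for D308N against shRPL3, while D308N against D308V had 5. Without the second-kind libraries it was 8, 6, 10, 8 and 6 for the same comparisons but R161W. With median-ratio scaling it was 7 for RPL3L-WT against shScramble, 6 for G27D and 7 for R161W against RPL3L-WT, with D308N against D308V at 1. With 2 groups only it was 1 for RPL3L-WT against shScramble, 0 for G27D and 0 for R161W against RPL3L-WT, and 10 for P291L and 3 for G27D against shRPL3. With no filter on low values it was 3 for D308V against shRPL3 and 1 for D308N against D308V. With a pseudocount of 0.1 no count moved by over 1.5 times. The share of all genes called was worked out for the pooled fit and the kind term only. Counts under every other setting, and with 1 library left out, therefore stand without that share and cannot be read against it.

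With 1 library left out, counts ran from 1 to 5 for RPL3L-WT against shScramble, 0 to 4 for P291L and 1 to 4 for G27D against RPL3L-WT, 3 to 5 for G27D, 3 to 5 for D308V and 2 to 4 for R343W against shRPL3, and 0 to 2 for D308N against D308V. In all 126 pairs of member and comparison, called in the pooled fit or with the kind term, were followed. A pooled call was lost in 19 of them when 1 library was left out. Pairs called with the kind term alone had no pooled call to lose, so the share of pooled calls lost is larger than 19 of 126.

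Among these 126 pairs signs turned in 4, none past the threshold in the pooled fit. The rest of the 180 pairs, called in neither fit, were not followed, and signs turned among them too. HSPA1B in RPL3L-WT against shScramble was at -0.16 pooled and 0.17 with the kind term. HSPE1 in RPL3L-WT against shRPL3 was at 0.13 pooled and -0.09 with the kind term. HSPH1 in RPL3L-WT against shScramble went to 0.20 with median-ratio scaling, 0.14 with the kind as a term, 0.20 without the second-kind libraries, and -0.124 to 0.0442 with 1 library left out. HSPE1 in R161W against shRPL3 went to 0.0817 with median-ratio scaling and -0.1317 to 0.0538 with 1 library left out. With 1 library left out HSPH1 ran from -0.004 to 0.1642 for RPL3L-WT against shRPL3 and from -0.1617 to 0.0065 for R161W against RPL3L-WT, turning without RPL3L-WT 3 in both.

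Same-numbered libraries of 2 groups deviated together in 1 of 18 comparisons (r of -0.539 to 0.505 over all), so the numbers were not taken to pair the samples. The kind was not removed from these deviations, so where both groups hold second-kind libraries r cannot tell pairing from kind. Against RPL3L-WT, r was 0.191, 0.194 and 0.505 in T189M, with the same kinds by number. It was -0.253, -0.213 and -0.539 in G27D, with the opposite kinds. With a replicate block 1 member was called for D308N against D308V, HSPB1 being lost, BAG3 was gained for D308V against shRPL3, and no other followed call changed. The depth of the libraries, which would set the limit for HSPA6 and other low genes, is unknown.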
